A study of Mus musculus with 8 samples.

Results

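The genes described here are subunits of the phosphoinositide 3-kinases (PI3-kinases) and 1 lipid phosphatase that acts on their product. They were taken by name as 9 genes, namely the catalytic subunits Pik3ca, Pik3cb, Pik3cd and Pik3cg, the regulatory subunit Pik3r1, the class II enzymes Pik3c2a and Pik3c2g, the class III enzyme Pik3c3, and Inpp5d, which encodes the phosphatase SHIP1. Every probe set of the array whose annotated symbol was, or included, one of these names was used, which gave 16 of 22690 probe sets for 8 of the genes. Pik3cb had no probe set, and none of the 16 joined several symbols. All 16 passed the filter on low signal, so 8 genes were tested among 8535. Pik3c2g was put in the group because it was far higher in tumors than in parental cells, so this member was chosen by its signal in these samples and its rise is described without a test, while the other genes were taken for their family.

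The study measured tumors that formed in nude mice after injection into a vein of FL5.12 cells, a line of mouse pro-B cells that needs interleukin-3 to grow. The tumor groups were tumor 1, tumor 2 and tumor 3, each from the spleen of 1 mouse and each on 2 arrays. The parental group was the injected cell line itself on 2 arrays. All groups carried stably transfected Bfl-1DC and p53DD, and the parental cells were grown with medium conditioned by WEHI-3B cells as a source of interleukin-3. Per the labels, the tumor material consisted of tumor cells derived from the spleen, with no account of how host cells were kept out, and the source does not give the number of parental cultures. In such bulk RNA, fewer cells of a type and less RNA per cell cannot be told apart. Values are linear signal intensities, and changes are differences of log2(signal + 16), tumors minus parental cells. Of markers of the pro-B stage, Cd79a and Cd79b were above the 40th percentile of signal on all 8 arrays, Igll1 on 3 and Vpreb1 on 0.

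PI3-kinases phosphorylate the inositol ring of membrane lipids at its 3 position. Class I enzymes are pairs of a catalytic and a regulatory subunit, act downstream of cytokine and antigen receptors, and make the lipid that recruits AKT, while class II and class III enzymes make lipids that direct membrane traffic and autophagy. SHIP1 of blood cells removes the 5-phosphate from the class I product.

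Pik3c2g encodes the gamma isoform of class II PI3-kinase, which in the mouse is known mainly from the liver, and lies on chromosome 6 (GRCm38.p6, chr6:139614072-139969284, plus strand). RefSeq gives it 2 windows of 250 bases before to 50 after a transcript start, the second of them inside the gene. They are shown with that of its sister gene Pik3c2a, which differs from them in CG content, with each CG dinucleotide in capitals. A link between these windows and the signal change was not tested.
Pik3c2g, chr6:139613822-139614121 (+): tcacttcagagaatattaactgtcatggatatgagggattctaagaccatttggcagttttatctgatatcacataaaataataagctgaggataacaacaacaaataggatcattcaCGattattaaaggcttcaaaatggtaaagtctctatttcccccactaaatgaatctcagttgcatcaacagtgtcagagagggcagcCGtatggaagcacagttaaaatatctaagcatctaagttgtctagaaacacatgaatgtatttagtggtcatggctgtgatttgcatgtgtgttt
Pik3c2g, chr6:139841195-139841494 (+): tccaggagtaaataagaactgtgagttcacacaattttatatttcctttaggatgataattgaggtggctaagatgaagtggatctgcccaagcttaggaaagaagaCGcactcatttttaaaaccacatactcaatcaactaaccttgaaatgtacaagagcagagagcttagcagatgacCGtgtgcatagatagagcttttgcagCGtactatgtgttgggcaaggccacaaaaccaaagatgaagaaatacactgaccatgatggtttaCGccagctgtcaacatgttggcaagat
Pik3c2a, chr7:116443409-116443708 (-): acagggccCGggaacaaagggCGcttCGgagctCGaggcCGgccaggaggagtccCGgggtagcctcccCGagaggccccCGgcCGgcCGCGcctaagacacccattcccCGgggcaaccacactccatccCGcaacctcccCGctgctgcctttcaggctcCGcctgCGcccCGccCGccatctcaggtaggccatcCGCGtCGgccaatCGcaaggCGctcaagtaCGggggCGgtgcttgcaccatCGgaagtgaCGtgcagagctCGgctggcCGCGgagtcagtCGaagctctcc
The Pik3c2g windows hold 2 and 4 CG dinucleotides, and 14.1% and 31.4% of the 32851 RefSeq windows of the same length hold fewer. The Pik3c2a window holds 31, and 89.4% of windows hold fewer. Low counts are not particular to Pik3c2g. The poorest windows of Pik3cd, Pik3cg, Pik3r1 and Inpp5d hold 4, 4, 6 and 6. The letters GATAA, searched on both strands, occur at 2 places in the first Pik3c2g window, 1 in the second and 0 in the Pik3c2a window, and 25.4% of all windows hold them. TATAAA, also on both strands, occurs at 1 place in the second Pik3c2g window and at 0 in the other windows shown, against 13.6% of all windows that hold it. None of these matches overlapped another motif searched. They describe the letters and were not set against any binding data. GATAA also occurs in a window each of Pik3cd, Pik3r1 and Inpp5d, and TATAAA in one of Pik3r1.

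The signal of Pik3c2g (probe set 1421704_a_at, the only one for the gene) was 191 and 208 on the arrays of tumor 1, 672 and 885 on those of tumor 2 and 365 and 485 on those of tumor 3, against 1.49 and 8.06 on the parental arrays. All 6 tumor arrays lay far above both parental arrays, and both parental arrays lay below the 40th percentile of their own signal, at 15.97 and 15.6. Against the higher of these percentiles the mean signal was at least 12.5-fold higher in tumor 1, 48.8-fold in tumor 2 and 26.6-fold in tumor 3. The mean was 468 ± 292 (SD, n = 3 tumors) in tumors and 4.78 ± 4.65 (SD, n = 2 arrays) in parental cells. These values chose the gene and carry no test.

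The 3 tumors, each 1 mouse on 2 arrays, had different Pik3c2g signals. In order from low to high they were tumor 1, tumor 3 and tumor 2, and the 2 arrays of one tumor did not overlap those of another. The mean signal in tumor 2 was 3.90 times that in tumor 1 and 1.83 times that in tumor 3. Limma's F test over the 3 tumors gave an adjusted p of 0.0268 for Pik3c2g. It sets the tumors against the spread of duplicate arrays in all sources, the parental arrays included. Pik3c2g was chosen for its signal on these tumor arrays and passed the filter through them alone, which limits what this p can show. The same test called 1.62% of all genes (138 of 8535). With the array number as a block it called 551 genes, and the adjusted p for Pik3c2g was 0.0023. The call was lost whichever 1 of the 6 tumor arrays was left out (adjusted p 0.0678 to 0.111), with 1 as the pseudocount (0.36) and where low values were kept (0.052). The F test called 0 of the other 7 genes, with a lowest adjusted p of 0.537 and a lowest unadjusted p of 0.0986.

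Some markers of other cells also moved with the comparison. Of 12 neutrophil, 5 eosinophil and 9 T cell genes, 11, 3 and 3 passed the filter. Of those, 2, 2 and 1 were called higher in tumors, against 0.598% of all genes (51 of 8535). Of 9 macrophage and monocyte genes and 4 pro-B genes past the filter, 4 and 1 were called higher. Of mature B, NK, mast cell and basophil, erythroid, megakaryocyte, endothelial and stroma genes, 0 were called in either direction. Summed signal over 12 neutrophil genes was 4175 to 10586 on tumor arrays and 328 to 837 on parental arrays, over 5 eosinophil genes 3637 to 8008 and 35.9 to 41.4, and over 9 T cell genes 885 to 2613 and 112 to 180. Each of these 3 sums was lowest in tumor 2. The sums of 3 other lists were lowest in tumor 1 and highest in tumor 2. Over 10 pro-B genes they were 459, 579 and 560 in tumors 1, 2 and 3. Over 9 erythroid genes they were 960, 2192 and 2139, and over 5 megakaryocyte genes 541, 783 and 718. Parental arrays had 238 to 239 for the pro-B, 2045 to 3168 for the erythroid and 529 to 643 for the megakaryocyte genes. The part of such cells in the Pik3c2g signal was not tested, and the order of 3 tumors cannot show it. Of 13 hepatocyte genes, a list chosen after the data were seen, 3 passed the filter. Of the 13, 0 were above the 40th percentile on all tumor arrays and 1 was on both parental arrays. The sum over the 13 was 89.3 to 122.6 on tumor arrays and 88.3 to 88.6 on parental arrays, and 105.5, 112.9 and 98.7 in tumors 1, 2 and 3. Of the 3 that passed the filter, 0 were called. Alb, Apoa1 and Ttr were below the 40th percentile on all 8 arrays. Alb was at 3.24 to 14.3 in tumors and at 9.88 and 12.7 in parental cells.

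Of the 3 nearest genes with a probe set on each side of Pik3c2g on chromosome 6, most were near background. Plcz1, Capza3, Slc15a5 and Igbp1b did not exceed the 40th percentile on any array. Plekha5, which follows them on the distal side and encodes a phosphoinositide-binding protein, had mean signals of 52.4, 73.3 and 74.8 in tumors 1, 2 and 3, against 50.7 and 54.1 on the parental arrays (change 0.26, limma adjusted p = 0.531). Mgst1, a microsomal glutathione transferase on the proximal side, was high in tumor 1 alone, with a mean signal of 290 there and of 6.84 and 9.09 in tumors 2 and 3, against 3.80 and 4.77 on the parental arrays (change 1.17, adjusted p = 0.525). The tumor with the highest Mgst1 signal was thus the one with the lowest Pik3c2g signal.

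The genes whose values over the 8 arrays were most like those of Pik3c2g were Cav2, a caveolin of membrane invaginations (Pearson r = 0.989), Dpysl4 (0.981), Rgs10, a regulator of G protein signalling (0.977), Plekho1 (0.976) and Npr2, a natriuretic peptide receptor (0.971). These correlations describe 8 arrays of 4 sources, and the gap between tumors and parental cells enters each of them. Dpysl4 was near background, at 11.9 to 25.0 on tumor arrays, where the 40th percentiles of signal were 17.1 to 20.7. On both arrays of tumor 1 it was below that percentile. Cav2 lies on chromosome 6, as Pik3c2g does, but was not among the neighbours above. Dpysl4 and Rgs10 lie on chromosome 7, Plekho1 on 3 and Npr2 on 4. The signal of Cav2 was 60.1 and 81.0 on the arrays of tumor 1, 141 and 138 on those of tumor 2 and 73.0 and 125 on those of tumor 3, against 1.09 and 3.95 in parental cells. As with Pik3c2g, it was highest in tumor 2, although the second array of tumor 3 came close to the arrays of tumor 2. Npr2 had 46.2 and 62.7 on the arrays of tumor 1, 137 and 206 on those of tumor 2 and 115 and 148 on those of tumor 3, against 8.50 and 19.3 in parental cells, and its arrays of tumors 2 and 3 overlapped.

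**Figure D1:**
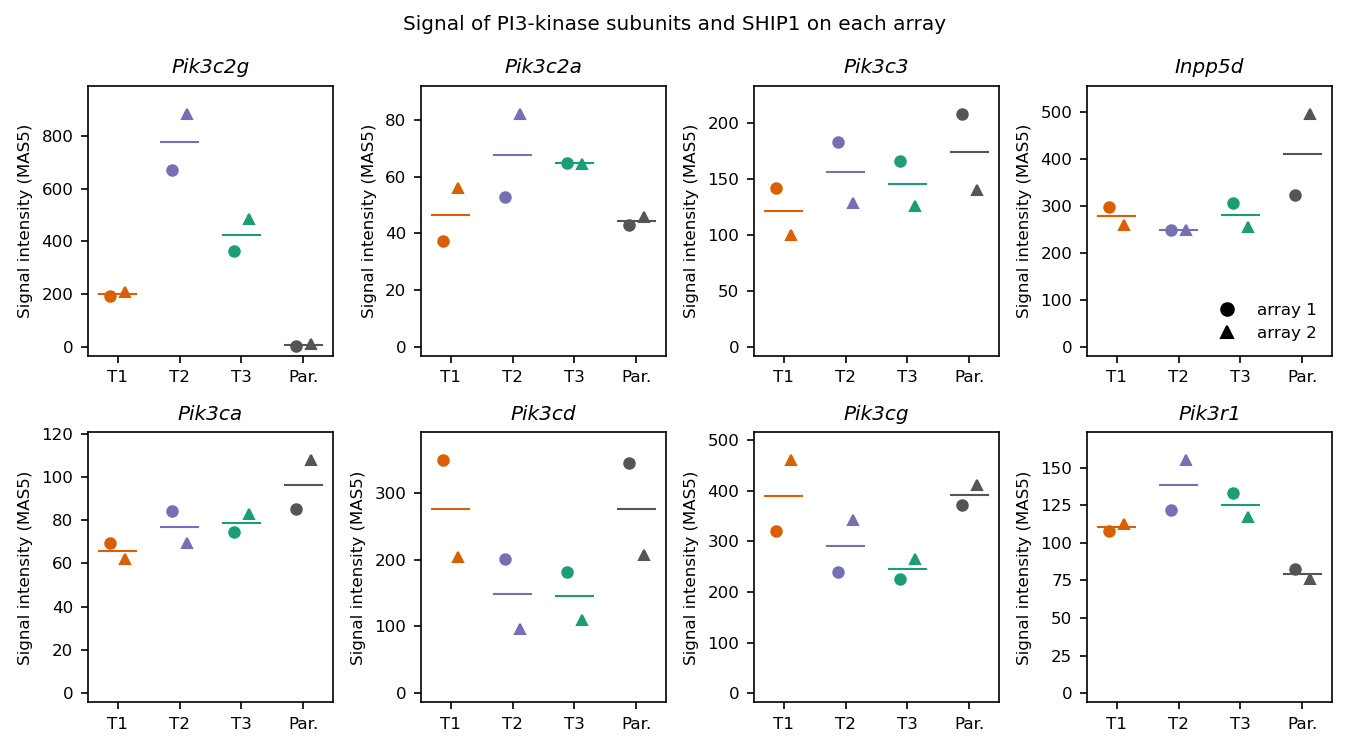
Signal intensity of the probe set used for each of the 8 measured genes, with tumors 1, 2 and 3 (T1, T2, T3) left of the parental cells (Par.), circles for the first array, triangles for the second and a line for their mean. Pik3c2g stood at 191 to 885 on the tumor arrays and at 1.49 and 8.06 on the parental arrays, while the changes of the other 7 genes, averaged over the 3 tumors, ran from -0.57 to 0.56 on the log2 scale.

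The other PI3-kinase genes and Inpp5d had changes of -0.57 to 0.56 averaged over the 3 tumors. In limma over all genes, 0 of these 7 passed at an adjusted p of 0.05 (lowest 0.179), where 0.773% of all genes did (66 of 8535), 0.598% higher in tumors and 0.176% lower. Those were 51 and 15 genes, and 48 and 27 where each array was centred on its median. At an unadjusted p under 0.05 there were 2, Pik3r1 and Inpp5d, against 16.4% of all genes. Of the 7, 2 lay above 0 and 5 below, with a median change of -0.32, against a median of 0.022 over all genes. The 3 tumor means lay on one side of both parental arrays for 4 of the 7, Pik3ca, Pik3r1, Pik3c2a and Inpp5d, and for 35.6% of all genes.

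Pik3r1, on chromosome 13, encodes the p85 alpha regulatory subunit, which stabilises class IA catalytic subunits and brings them to phosphorylated receptors and adaptors. Its probe set 1425514_at had signals of 108 and 113 on the arrays of tumor 1, 122 and 155 on those of tumor 2 and 134 and 117 on those of tumor 3, against 82.5 and 75.9 in parental cells. All 6 tumor arrays were above both parental arrays. The change was 0.56 ± 0.16 (SE, n = 3 tumors and 2 parental arrays), with a limma adjusted p of 0.179, so it did not pass. The other probe sets gave 0.55 (1425515_at) and 0.65 (1451737_at). On 1451737_at all 6 tumor arrays were again above both parental arrays, and on 1425515_at 5 of 6 were. Across 3 probe sets and 3 tumors every one of the changes was above 0, from 0.22 to 0.72.

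Inpp5d lies on chromosome 1, and its product SHIP1 limits class I signalling in blood cells. Probe set 1418110_a_at had signals of 297 and 258 on the arrays of tumor 1, 248 and 247 on those of tumor 2 and 307 and 255 on those of tumor 3, against 323 and 495 in parental cells. All 6 tumor arrays were below both parental arrays, but the parental arrays stood further apart than any pair of tumor arrays. The change was -0.55 ± 0.21 (SE), with a limma adjusted p of 0.271. It was -0.18 among the first arrays of all sources and -0.92 among the second. The other probe set, 1424195_a_at, had a change of -0.082, with 3 tumor arrays above both parental arrays and 3 below both. All 3 of those above were first arrays and all 3 of those below were second arrays.

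Pik3cd, on chromosome 4, encodes p110 delta, the class IA catalytic subunit of leukocytes that serves the B cell receptor and cytokine receptors. Its probe set 1453281_at had signals of 349 and 203 on the arrays of tumor 1, 201 and 96.5 on those of tumor 2 and 182 and 110 on those of tumor 3, against 345 and 207 in parental cells. Tumor 1 was close to the parental cells on both arrays, and tumors 2 and 3 were lower than both on the array of the same number. The changes were -0.0041, -0.86 and -0.85 in tumors 1, 2 and 3 (SE 0.42), and the change over all tumors was -0.57 ± 0.33 with a limma adjusted p of 0.445.

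The second array of each source was lower than the first for Pik3cd, with differences of -0.73, -0.95 and -0.65 in tumors 1, 2 and 3 and of -0.69 in parental cells on the log2 scale. Averaged over the 4 sources, 1.07% of genes had a lower difference, and the second array was lower in all 4 sources for 20.9% of genes. With the array number as a block, limma's F test gave Pik3cd an adjusted p of 0.0223 for a difference between tumors, against 0.586 without the block. In that blocked fit the adjusted p against parental cells was 0.987 in tumor 1, 0.0198 in tumor 2 and 0.015 in tumor 3. Without the block it was 0.997, 0.427 and 0.385. All these p-values measure the spread between duplicate arrays, with 1 mouse for each tumor. The blocked fit called 551 of 8535 genes between tumors, and 1288, 531 and 902 in tumors 1, 2 and 3. Probe set 1422992_s_at showed the same order, with changes of -0.13, -1.03 and -0.93. On 1422991_at the change was -0.65 in tumor 1, so this probe set put tumor 1 below the parental cells as well, with 69.4 and 16.04 on the arrays of tumor 1, against 114 and 35.6 in parental cells. Its second arrays had 16.04, 20.2 and 24.6 in tumors 1, 2 and 3, where the 40th percentiles of signal were 20.6, 20.2 and 20.7, against 35.6 in parental cells with a percentile of 15.6.

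**Figure D2:**
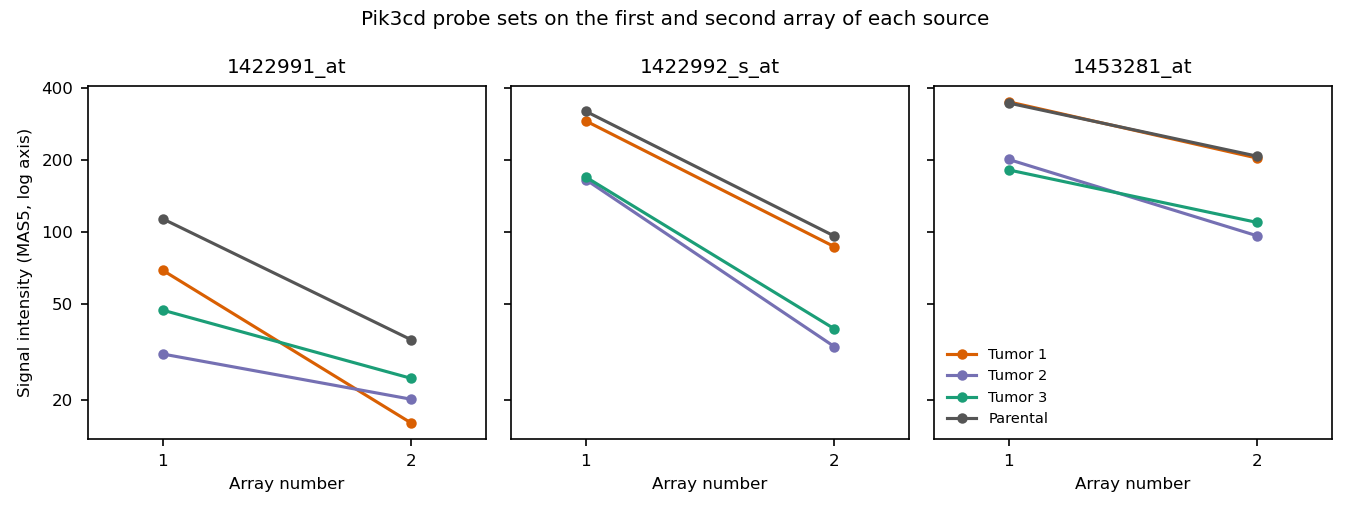
Signal intensity (log axis) of the 3 Pik3cd probe sets on the first and second array of each source, one line per source. All lines fall to the right, and on 1453281_at and 1422992_s_at the lines of tumors 2 and 3 run below those of tumor 1 and the parental cells, with 201 and 182 on the first arrays of tumors 2 and 3 against 345 for parental cells on 1453281_at.

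Pik3cg, on chromosome 12, encodes p110 gamma, the class IB catalytic subunit of myeloid and lymphoid cells that G protein-coupled receptors activate. Probe set 1422707_at had signals of 320 and 460 on the arrays of tumor 1, 240 and 343 on those of tumor 2 and 226 and 266 on those of tumor 3, against 373 and 411 in parental cells. Tumor 1 spanned the parental arrays, and tumors 2 and 3 lay below both. The change over all tumors was -0.36 ± 0.22 (SE, limma adjusted p = 0.45), and those of tumors 1, 2 and 3 were -0.026, -0.43 and -0.64. With the array number as a block the adjusted p of tumor 3 against parental cells was 0.0447, against 0.251 without it, and the F test over the tumors gave 0.11. The blocked fit called 902 of 8535 genes in tumor 3, and its p-values measure the spread between duplicate arrays. The second probe set, 1422708_at, had a change of -0.40, with -0.16, -0.61 and -0.43 in tumors 1, 2 and 3. Thus tumor 1 was nearest to the parental cells on both probe sets of Pik3cg, and on 1453281_at and 1422992_s_at of Pik3cd. The summed neutrophil and macrophage signal, from cells known to express these leukocyte isoforms, was higher in all tumors than in parental cells. Macrophage and monocyte genes summed to 871 to 5021 on tumor arrays, against 198 to 911 on parental arrays, and the part of such cells in the Pik3cg and Pik3cd signal was not tested.

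Pik3ca, on chromosome 3, encodes p110 alpha, the widely expressed class IA catalytic subunit of growth factor receptors. Probe set 1423144_at had signals of 69.5 and 61.9 on the arrays of tumor 1, 84.4 and 69.3 on those of tumor 2 and 74.5 and 82.8 on those of tumor 3, against 85.1 and 108 in parental cells. All 6 tumor arrays were below both parental arrays, the nearest of them by less than 1 unit of signal. The change was -0.32 ± 0.17 (SE, limma adjusted p = 0.404), and it was -0.14 among first arrays and -0.51 among second arrays. On 1460326_at, with a change of -0.13, 2 of 6 tumor arrays were below both parental arrays.

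Pik3c2a, on chromosome 7, is the widely expressed class II enzyme that acts in endocytosis. Probe set 1421023_at had signals of 37.2 and 56.1 on the arrays of tumor 1, 52.9 and 82.3 on those of tumor 2 and 65.0 and 64.7 on those of tumor 3, against 43.0 and 45.8 in parental cells. The first array of tumor 1 was below the parental arrays and the other 5 tumor arrays were above them. The change was 0.30 ± 0.19 (SE, limma adjusted p = 0.469). Its second probe set, 1425862_a_at, exceeded the 40th percentile on 4 arrays only and had a change of 0.043.

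Pik3c3, on chromosome 18, encodes Vps34, the class III enzyme of autophagy and endosomes. Its probe set 1425580_a_at had signals of 142 and 100 on the arrays of tumor 1, 184 and 129 on those of tumor 2 and 166 and 126 on those of tumor 3, against 208 and 141 in parental cells. On the array of the same number each tumor was below the parental cells, although the groups overlapped, since the second array was the lower one in all 4 sources. The change was -0.28 ± 0.21 (SE, limma adjusted p = 0.557), with -0.33 among first arrays and -0.23 among second arrays.

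Tested one at a time against parental cells without the block, 0 of the 7 genes passed in any tumor, with a lowest adjusted p of 0.154 for Pik3r1 in tumor 2. Limma called 3.68%, 1.53% and 2.55% of all genes in tumors 1, 2 and 3 (314, 131 and 218 genes), and with the array number as a block 1288, 531 and 902. These comparisons share the 2 parental arrays.

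**Figure D3:**
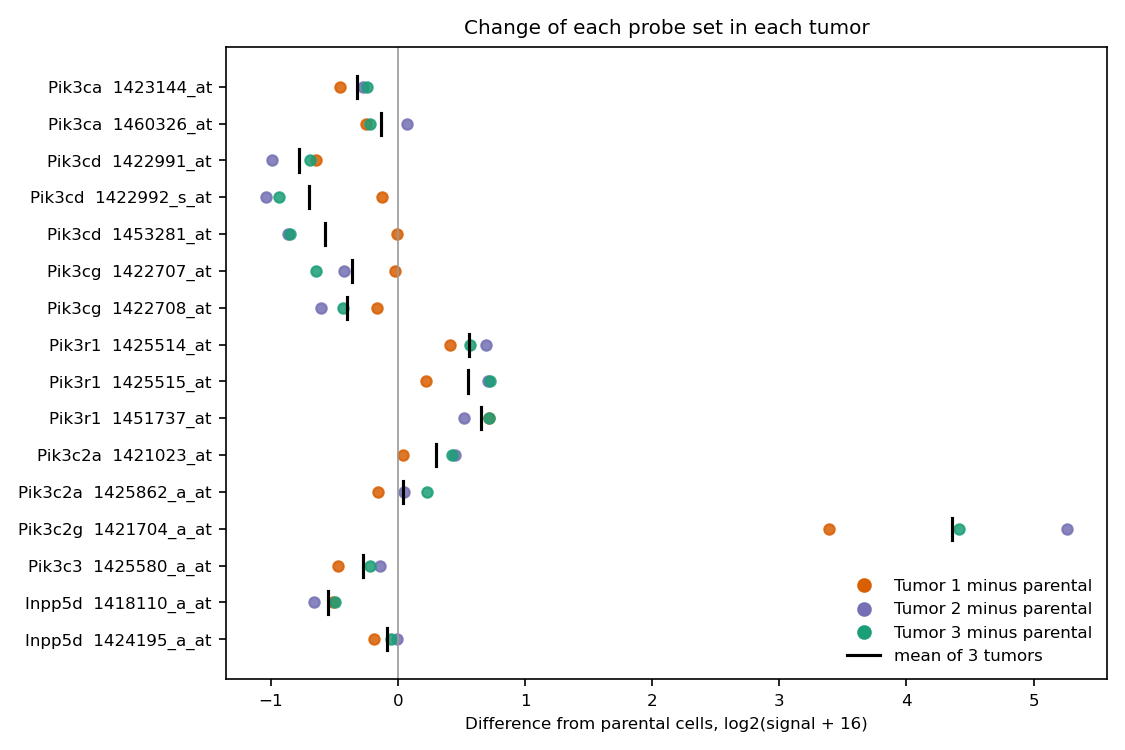
Difference of log2(signal + 16) between each tumor and the mean of the parental arrays for all 16 probe sets, with one point per tumor and a bar at the mean of the 3 tumors. Pik3c2g stands apart at 3.39 to 5.26, values that depend on the pseudocount because both parental signals were below the 40th percentile, all Pik3r1 points are above 0, and all Pik3cd and Pik3cg points are below 0, those of tumor 1 on 1453281_at and 1422707_at at -0.0041 and -0.026.

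Around these genes, limma called 1 of the 98 genes tested in 6 lists of phosphoinositide signalling, or 1.02%, which is near the 0.773% called over all genes. That gene was Gab1, which rose. Gab1, on chromosome 8, encodes a docking protein that, once phosphorylated, binds the p85 subunit and so recruits class IA PI3-kinase. Its signal was 328 and 218 on the arrays of tumor 1, 390 and 235 on those of tumor 2 and 519 and 373 on those of tumor 3, against 75.0 and 84.4 in parental cells (probe set 1417693_a_at). Every tumor array was above both parental arrays, and the first array was the higher one in each tumor. The mean was 344 ± 90.7 (SD, n = 3 tumors) in tumors and 79.7 ± 6.66 (SD, n = 2 arrays) in parental cells, a change of 1.86 ± 0.23 (SE, limma adjusted p = 0.0279). The other 2 probe sets of Gab1 changed by 2.40 and 1.87. The call was lost without either parental array (adjusted p 0.143 and 0.157), with 64 as the pseudocount (0.0533) and where low values were kept (0.0709), and in these fits the change was 1.46 to 1.93.

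Of the list of other PI3-kinase subunits and adaptors, 6 of 14 genes passed the filter on low signal, 1 rose (Gab1) and 0 fell, with a median of -0.050. Over all genes 52.9% lay above 0 and 47.1% below, and 16.4% had an unadjusted p under 0.05. Pik3r2, the p85 beta regulatory subunit, had a change of -0.20 (limma adjusted p = 0.605), Gab2 and Gab3, relatives of Gab1, had -0.094 and -0.27, and Pik3r4, the partner of Vps34, had 0.26. Of phosphoinositide phosphatases 22 of 28 passed the filter, 17 of these lay above 0, and 0 passed in either direction, with 2 at an unadjusted p under 0.05. Their median was 0.19, against 0.022 over all genes. Fig4, a 5-phosphatase of endosomal lipids, had 0.59 (adjusted p = 0.181), and Mtmr9, a myotubularin without catalytic activity, had -0.42 (0.23).

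Of other phosphoinositide kinases 11 of 16 passed the filter and 9 of these lay below 0, with a median of -0.21 and 0 called (1 at an unadjusted p under 0.05). Pi4ka, a 4-kinase of the plasma membrane, had a change of -0.51 (limma adjusted p = 0.279), and Pip5k1b, which makes the substrate of class I enzymes, had -0.29 (0.435). Of AKT and mTOR signalling 24 of 34 genes passed the filter and 19 of these lay below 0, with a median of -0.066, 0 called and 3 at an unadjusted p under 0.05. Sgk3, a kinase recruited to endosomes by the lipid that class III enzymes make, had 0.84 (0.155), Rps6kb2, a ribosomal S6 kinase, had -0.62 (0.177), and Akt1 had -0.52 (0.283).

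FOXO factors are held out of the nucleus by AKT, and of the 14 of 22 FOXO target genes that passed the filter 10 lay below 0, with a median of -0.13, 0 called and 1 at an unadjusted p under 0.05. That gene was Ccng2, a cyclin of resting cells, with a change of -0.66 (limma adjusted p = 0.252). Insr, the insulin receptor, had 0.39 (0.533). Of the 22 of 23 genes of the Vps34 complex and autophagy that passed, 13 lay above 0, with a median of 0.11, 0 called and 1 at an unadjusted p under 0.05. Rab5c, an early endosome GTPase, had 0.58 (0.199), and Atg12, a ubiquitin-like conjugate of autophagosome formation, had 0.54 (0.334).

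**Figure D4:**
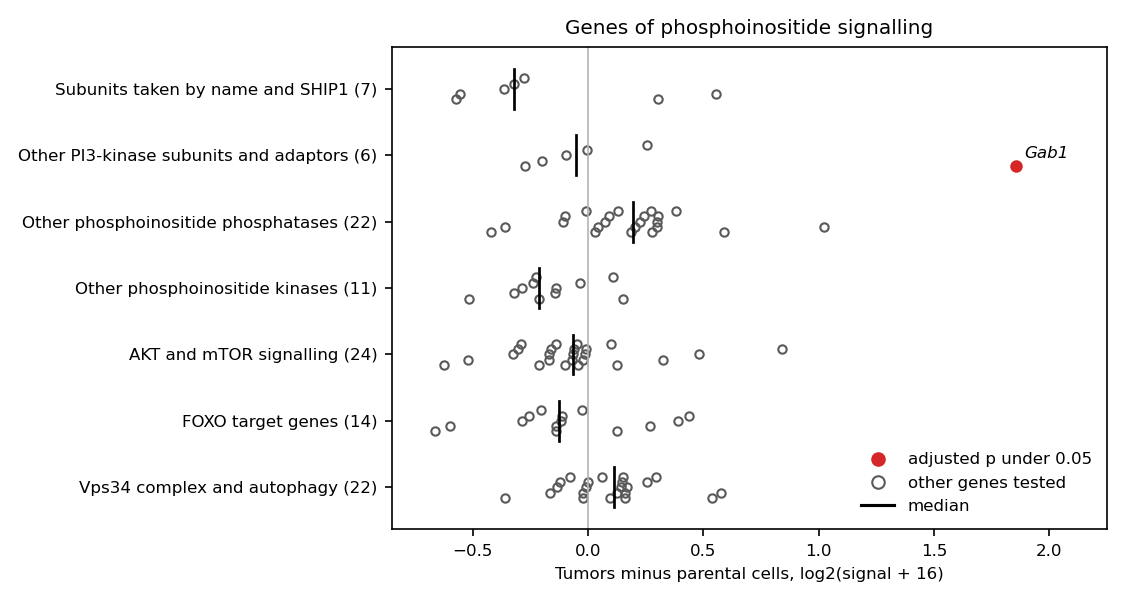
Change of every gene tested in 6 lists of phosphoinositide signalling and in the 7 genes taken by name (top row), tumors minus parental cells on the scale of log2(signal + 16), with a bar at each median and numbers of genes in brackets. Gab1 at 1.86 is the only filled point, the one with an adjusted p under 0.05, and the medians run between -0.32 and 0.19.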

How the data were processed

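RNA was measured on Affymetrix Mouse Genome 430A 2.0 arrays, 8 in all. The authors deposited a linear signal intensity for each probe set, made with MAS5, per the submitters' processing notes, in a version not given in the sources used here. Each array had a trimmed mean of 150.06, so arrays had been scaled to one level. Median signal lay between 32.4 and 37.9, and the number of arrays limits the precision.

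Names came from the annotation of the platform, brought up to date through gene IDs of RefSeq GRCm38.p6 (20351 of 20380 with 1 symbol matched, 691 had several and 1555 none, and 64 controls were left out). Signals became log2(signal + 16), which understates changes of low genes. Probe sets above the 40th percentile of their array on at least 2 arrays were kept, 1 per gene, that of highest mean, which left 8535 genes. Limma 3.58.1 in R 4.3.3 compared 3 tumor means with 2 parental arrays, two-sided, with Benjamini-Hochberg adjustment at 0.05 over all genes. Each tumor, and the F test over tumors, used all 8 arrays, with 4 residual degrees of freedom without the block and fewer with it. Those p-values thus measure the spread between duplicate arrays, which may be technical. The fit of tumor means gives each mean of 2 arrays the weight of 1 parental array. In simulated data with one spread for all arrays and genes, the share of false calls of this fit was above the nominal rate. So was that of the blocked fit pooled over the tumors. The simulated arrays had no effect of the array number, and the blocked fits of each tumor and between tumors were not simulated. Same-numbered arrays deviated together (correlations of 0.4 to 0.595 in 6 pairs of sources), so the numbers in the labels pair the arrays and blocked values are given where they change a call. Actb and Gapdh changed by 0.17 and 0.37 (limma adjusted p 0.679 and 0.46).

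Members and lists were chosen with earlier results of these data known. All members, the 2 genes of lowest p and every called gene of each list, and the 5 genes most correlated with Pik3c2g were named. Gab2, Gab3, Pik3r4, Akt1, Mtm1 and the neighbours of Pik3c2g were named after their values were seen. Alternatives were pseudocounts, filters, normalizations, uses of probe sets, the block, single arrays of a tumor and leaving out samples. Comparisons within an array number were added after seeing the data.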

Additional observations from a re-analysis of the deposited data

Results flagged for a closer look

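Pik3c2g was called between the tumors by limma's F test over all genes (adjusted p = 0.0268). Its mean signals were 199, 779 and 425 in tumors 1, 2 and 3. The gene was chosen for its signal on these tumor arrays and passed the filter through them alone. Mtm1, a myotubularin that removes the 3-phosphate from the lipids of class III enzymes and lies in the list of phosphoinositide phosphatases, also differed between the tumors (adjusted p = 0.0372). Its mean signal was 343, 662 and 1624 in tumors 1, 2 and 3, against 454 and 258 on the parental arrays, and its change over all tumors was 1.02 ± 0.61 (SE, limma adjusted p = 0.453). Tumor 3 was thus the highest for Mtm1 and tumor 2 for Pik3c2g. The Mtm1 call was lost whichever 1 of the 6 tumor arrays was left out (adjusted p 0.053 to 0.247), with 1 as the pseudocount (0.0989), where low values were kept (0.0759) and with the mean of the probe sets of the gene (0.132). With the array number as a block it was 0.00169. Without the block, the F test called 1 of the 22 phosphatase genes tested in that list and 1.62% of all genes (138 of 8535). Each tumor is 1 mouse on 2 arrays.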

How the results depend on the processing

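Pooled over the tumors, the 7 genes taken by name kept the direction of their change in every alternative that kept them, and stayed uncalled wherever they were tested. Pik3r1 lay between 0.39 and 0.64 (limma adjusted p 0.136 to 0.397), Inpp5d between -0.92 and -0.18 and Pik3cd between -0.96 and -0.18. Pik3c2a had no value with the filter at the 60th percentile, and the comparisons within an array number had no test. The Pik3c2g change, from parental signals below the 40th percentile, ran from 2.79 with 64 as the pseudocount to 6.40 with 1. Its difference between tumors had an adjusted p of 0.36 with 1 as the pseudocount and 0.052 where low values were kept, which tests more genes, and of 0.0678 to 0.111 without 1 tumor array, where fewer arrays remain. It kept its call in 7 of 15 alternatives (0.0023 with the replicate block). The gene was chosen for its signal on these tumor arrays and passed the filter through them alone, so these counts add no support for the difference. Genes called over all genes against parental cells numbered 33 with 64 as the pseudocount, 26 where low values were kept, 104 with every probe set on its own, 41 and 118 on the first and second arrays of the tumors alone, 13 to 17 without 1 parental array (a lone array is then assumed to vary like the tumors) and 67 with the replicate block. Centring arrays on their medians gave 48 higher and 27 lower, against 51 and 15, with a median change of -0.086 over all genes against 0.022. Genes that differed between tumors numbered 72 with 1 as the pseudocount, 79 where low values were kept, 551 with the replicate block and 37 to 99 without 1 tumor array. The replicate block gave 1288, 531 and 902 genes in tumors 1, 2 and 3. Pooled over the tumors the block changed no call of the 7 genes or Gab1. Among the 7 genes it added those of Pik3cd between tumors and in tumors 2 and 3, and of Pik3cg in tumor 3 (adjusted p 0.0223, 0.0198, 0.015 and 0.0447). The causes were not tested.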
